A study of Homo sapiens with 9 samples.

Results

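The 10 genes described here encode amino acid transporters of the plasma membrane that growing lymphoid cells use: SLC3A2, SLC7A5, SLC7A6, SLC7A11, SLC7A1, SLC43A1, SLC1A5, SLC1A4, SLC38A1 and SLC38A2. They were taken by symbol from a table of read counts for 17637 genes, all 10 had a row, and all 10 were among the 15309 genes that passed a filter on low counts. The cells are KOPTK1, an established human line of T-cell acute lymphoblastic leukaemia (T-ALL), kept in a medium supplemented with L-glutamine and non-essential amino acids. The 3 groups were sequenced as poly(A)-selected RNA, 3 libraries each: shDHX15_MYC, which carries a lentiviral hairpin against the RNA helicase DHX15 together with the coding region of MYC; shDHX15, which carries that hairpin alone; and shControl, whose columns in the table are named for a hairpin against GFP. All groups carry a lentiviral hairpin, and the columns of both DHX15 groups bear the same hairpin number, so a lower level of DHX15 cannot be told apart from other effects of that hairpin or from how the groups were handled. The labels do not say whether the libraries of a group are separate cultures, so the p-values reflect no more than how these libraries varied. The study's stated aim was to examine MYC as a target downstream of DHX15. The comparisons here set the transporters with and without added MYC side by side. No group has added MYC with the control hairpin, so an action of MYC downstream of DHX15 on these genes was not tested.

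Amino acids do not cross the plasma membrane unaided, and a growing T-cell imports them through a small set of exchangers and sodium-coupled carriers. SLC3A2 (also called 4F2hc or CD98) is a heavy chain that brings light chains of the SLC7 family to the surface, where SLC7A5 (LAT1) takes up leucine and other large neutral amino acids, SLC7A6 exchanges arginine for neutral amino acids, and SLC7A11 (xCT) exchanges cystine for glutamate. The sodium-coupled carriers SLC38A1 and SLC38A2 and the exchangers SLC1A5 and SLC1A4 move small neutral amino acids, glutamine among them for SLC1A5, SLC38A1 and SLC38A2. Leucine and arginine that enter the cell are sensed upstream of the kinase complex mTORC1, and shortage of amino acids raises the transcription factor ATF4, which acts on several transporter genes.

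Sequence before the transcription start was available from RefSeq (GRCh38.p14) for 9 of the 10 genes, as 16 windows that run from 250 bases before a start to 50 after it. For these windows 3 motifs were searched on both strands: the E-box CACGTG, which MYC with MAX binds, the C/EBP-ATF response element TGATGNAA, which ATF4 with C/EBP proteins binds, and the core of the antioxidant response element, TGACNNNGC, which NFE2L2 binds. Of 34943 promoter windows of the same length, 7.23% hold the first, 3.62% the second and 13.3% the third. The E-box was in windows of SLC7A5, SLC43A1 and SLC1A5, TGATGNAA in windows of SLC38A1, SLC7A1, SLC1A4, SLC3A2 and SLC1A5, and TGACNNNGC in windows of SLC7A5, SLC7A1, SLC7A6, SLC3A2 and SLC1A5. The matches of SLC3A2, SLC1A5, SLC38A1 and SLC1A4 belong to other annotated starts than the outermost one, and SLC38A2 had none. A match is a description of the letters only. The upstream stretches below belong to SLC7A5, SLC43A1 and SLC3A2, of which SLC7A5 and SLC3A2 had large positive fold changes with added MYC. That of SLC43A1 was small and negative (-0.21 on the log2 scale against shDHX15), and its call was lost in 10 of 17 alternatives. Capitals mark an E-box, and the SLC3A2 stretch holds none of the 3 motifs.

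SLC7A5, minus strand, chr16:87869508-87869757: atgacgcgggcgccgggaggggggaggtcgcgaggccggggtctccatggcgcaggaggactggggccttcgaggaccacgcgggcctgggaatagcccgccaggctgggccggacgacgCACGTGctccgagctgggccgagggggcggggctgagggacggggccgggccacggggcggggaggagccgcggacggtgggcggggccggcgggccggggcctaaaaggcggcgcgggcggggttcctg
SLC43A1, minus strand, chr11:57515787-57515952: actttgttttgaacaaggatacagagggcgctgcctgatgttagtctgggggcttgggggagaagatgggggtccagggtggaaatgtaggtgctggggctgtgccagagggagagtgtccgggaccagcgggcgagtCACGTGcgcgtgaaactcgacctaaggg
SLC3A2, plus strand, chr11:62855859-62856101: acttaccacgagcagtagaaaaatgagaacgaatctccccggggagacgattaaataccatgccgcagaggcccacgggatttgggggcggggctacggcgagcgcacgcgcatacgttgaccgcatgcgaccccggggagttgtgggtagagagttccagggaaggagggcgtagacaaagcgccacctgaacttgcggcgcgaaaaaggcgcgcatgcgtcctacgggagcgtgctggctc

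The element TGATGNAA was found, on either strand, within 10 bases of an annotated start of SLC38A1, SLC7A1 and SLC1A4. These sites are shown because SLC38A1 and SLC7A1 had positive fold changes with added MYC and SLC1A4 did not. Capitals mark the element.

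SLC38A1, minus strand, chr12:46266505-46266528: gacccgaaTGATGAAAagggatca
SLC7A1, minus strand, chr13:29595666-29595689: cgcactgcTGATGAAAcctggcgc
SLC1A4, plus strand, chr2:64989384-64989407: gctcccgtTTGCATCAtctccagc

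Total counts ran from 42134302 to 43371973 in shDHX15_MYC, from 48644528 to 59688062 in shDHX15 and from 45672922 to 50726272 in shControl, and the smallest count of any of the 10 transporters in any library was 156. Levels are CPM, counts scaled to a common library size, here with TMM factors. The targeted helicase DHX15 stood at 197, 196 and 192 CPM in shDHX15_MYC, 182, 162 and 156 in shDHX15 and 284, 278 and 278 in shControl. Each shDHX15_MYC and shDHX15 library lay below each shControl library. DHX15 was also called higher in shDHX15_MYC than in shDHX15, without overlap (log2 fold change 0.23, adjusted p = 1.24e-04). The groups with and without added MYC thus differ in DHX15 level as well as in MYC. No group is labelled as carrying an empty construct in place of MYC. Effects of the construct or of how the group was handled therefore cannot be told apart from those of MYC. MYC, which the counts do not split into added and endogenous, stood at 6922, 7174 and 7197 CPM in shDHX15_MYC, 85.3, 91.3 and 84.3 in shDHX15 and 110.0, 109 and 109 in shControl. The MYC message of the shDHX15_MYC group was thus 64.9-fold that of shControl. In shDHX15 against shControl MYC was called lower (log2 fold change -0.33, adjusted p = 2.44e-07). Mitochondrially encoded genes took 6.59% to 6.66% of counts in shDHX15_MYC, 3.67% to 3.87% in shDHX15 and 3.87% to 3.99% in shControl. The library shDHX15 replicate 1 stood apart from its group: the chi-square per degree of freedom of its counts was 17.6 against shDHX15 replicate 2 and 16.6 against shDHX15 replicate 3, where those libraries gave 4.38 against each other. Markers of T-cells and T-ALL (16 genes, none at 0 in any library) summed to 1863 to 1901 CPM in shDHX15_MYC, 2938 to 3081 in shDHX15 and 3725 to 3835 in shControl. Of these 16, 0 were called higher and 14 lower in shDHX15_MYC against shDHX15, where 42.1% of all genes were higher and 42.6% lower. Under total-count scaling 1 was higher and 13 lower, beside 7679 and 5348 of all 15309 genes. In shDHX15 against shControl 1 was higher and 11 lower, where 22.0% and 23.0% of all genes were. B-cell markers (6 genes, of which 0 to 2 were at 0 per library) summed to 105.7 to 109.8 CPM in shDHX15_MYC, 46.6 to 49.4 in shDHX15 and 51.1 to 53.4 in shControl. CD79A alone averaged 99.8 CPM in shDHX15_MYC, 37.4 in shDHX15 and 40.2 in shControl. The B-cell factors EBF1 and PAX5 had at most 4 and 24 counts in a library. Of 5 B-cell markers tested 3 were called higher and 1 lower in shDHX15_MYC against shDHX15, beside 42.1% and 42.6% of all genes. Myeloid markers (6 genes, 0 to 2 at 0) summed to 19.4 to 22.9 CPM in shDHX15_MYC, 12.3 to 12.9 in shDHX15 and 12.8 to 13.8 in shControl, with at most 4 counts of MPO in a library. Of the 5 myeloid markers tested, 4 were called higher in shDHX15_MYC than in shDHX15 and 0 lower, beside 42.1% and 42.6% of all genes. LYZ and CSF1R, and PAX5 among the B-cell markers, passed the count filter through shDHX15_MYC, the group in which they are high. ITGAM averaged 3.35 CPM in shDHX15_MYC, 0.325 in shDHX15 and 0.355 in shControl, and CD14 2.73 CPM in shDHX15_MYC, 0.347 in shDHX15 and 0.365 in shControl. LYZ averaged 0.789 CPM in shDHX15_MYC, 0.0398 in shDHX15 and 0.0614 in shControl, and CSF1R, at 0 in all shDHX15 libraries, had at most 60 counts in a shDHX15_MYC library. CD68, which made up most of the myeloid sum, was not called (0.16, adjusted p = 0.0554). Under total-count scaling all 5 were called higher, beside 7679 of all 15309 genes. Markers of adherent or packaging cells (9 genes, 2 to 4 at 0) summed to 36.8 to 37.1 CPM in shDHX15_MYC, 14.2 to 15.1 in shDHX15 and 19.3 to 20.4 in shControl, with at most 3 counts of THY1. All 4 of these that were tested were called higher in shDHX15_MYC than in shDHX15, beside 42.1% of all genes. KRT18 averaged 15.9 CPM in shDHX15_MYC, 4.46 in shDHX15 and 6.37 in shControl, and KRT8 15.2 CPM in shDHX15_MYC, 7.18 in shDHX15 and 10.9 in shControl. COL1A1 averaged 3.38 CPM in shDHX15_MYC, 1.55 in shDHX15 and 1.56 in shControl, and EPCAM 2.28 CPM in shDHX15_MYC, 1.20 in shDHX15 and 0.832 in shControl. Erythroid markers (5 genes, 0 to 3 at 0) summed to at most 1.01 CPM in a library. These marker sums, all but the erythroid, and the called markers move with the groups, and their part in the transporter results was not tested. In bulk RNA, fewer cells of a type and less RNA per cell cannot be told apart.

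**Figure D1:**
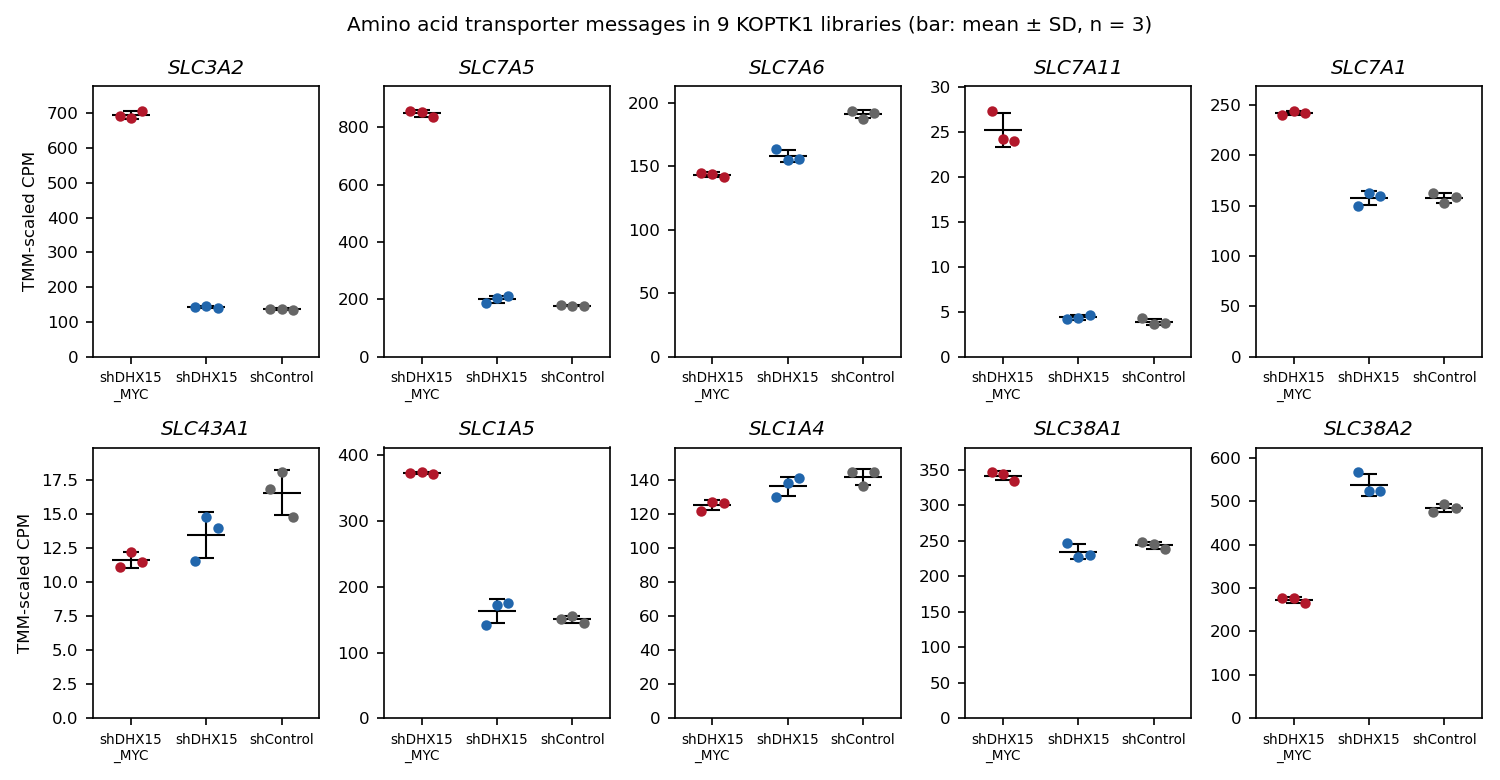
Level of each of the 10 transporters in the 9 libraries, in TMM-scaled CPM on axes that start at 0; points are libraries and the bar gives the mean and SD of 3. SLC3A2, SLC7A5, SLC7A11 and SLC1A5 are at least 2-fold higher in shDHX15_MYC than in shDHX15, and SLC38A2 is at 273 ± 6.83 CPM in shDHX15_MYC and 538 ± 25.4 CPM in shDHX15.

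The heavy chain and 2 of its light chains were several-fold higher in the libraries with added MYC, and the third light chain was not. SLC3A2 is on chromosome 11 at 62856102 to 62888875 (GRCh38, plus strand). It stood at 690.5, 687 and 707 CPM in the 3 shDHX15_MYC libraries, against 142, 147 and 140.2 CPM in shDHX15 and 138, 139 and 133 CPM in shControl. All shDHX15_MYC libraries were far above the other 6, and the shDHX15 libraries lay just above the shControl libraries without overlap. SLC3A2 rose 4.85-fold in shDHX15_MYC over shDHX15 (log2 fold change 2.28, SE 0.0314, adjusted p = 1.60e-19) and 5.08-fold over shControl (2.35, SE 0.0316, adjusted p = 1.21e-19). Between shDHX15 and shControl the log2 fold change was 0.07 (95% interval 8.46e-04 to 0.13 before adjustment, adjusted p = 0.0936), which missed the threshold of 0.05. It passed in 3 alternatives: at 0.13 under total-count scaling (adjusted p = 0.00178), at 0.09 without mitochondrially encoded genes and MYC (adjusted p = 0.0289) and at 0.07 without shDHX15 replicate 1 (adjusted p = 0.0261).

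SLC7A5, the LAT1 light chain, lies on chromosome 16 at 87830023 to 87869488 (minus strand), just downstream of the stretch printed above with its E-box 130 bases before the RefSeq start. Its level was 858, 853 and 835 CPM in shDHX15_MYC, 187, 204 and 211 CPM in shDHX15 and 179, 179 and 178 CPM in shControl. No groups overlapped, and the shDHX15 libraries were spread more widely than the others, with replicate 1 the lowest. SLC7A5 rose 4.23-fold in shDHX15_MYC over shDHX15 (2.08, SE 0.0376, adjusted p = 4.46e-18). It was also called higher in shDHX15 than in shControl, but by only 1.12-fold (0.17, SE 0.0370, adjusted p = 0.00132). Of 181 sequence windows along its transcripts, 1 is shared with the pseudogenes SLC7A5P2 and SMG1P3.

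SLC7A11, the cystine light chain on chromosome 4 at 138164097 to 138242349 (minus strand), was the scarcest of the 10 per length. It stood at 27.3, 24.2 and 23.9 CPM in shDHX15_MYC, 4.16, 4.31 and 4.69 CPM in shDHX15 and 4.27, 3.68 and 3.75 CPM in shControl. The shDHX15_MYC libraries were all above the other 6, whose groups overlap. SLC7A11 had the highest fold change of the 10, a rise of 5.74-fold in shDHX15_MYC over shDHX15 (2.52, SE 0.0907, adjusted p = 3.18e-14), while the log2 fold change of shDHX15 against shControl was 0.17 (95% interval -0.05 to 0.39, adjusted p = 0.213). Annotated exons of the antisense gene SLC7A11-AS1 cover 865 of its exon bases. Whether the counting used strand is not given in the sources used here.

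SLC7A6, the y+LAT2 light chain, was lower in both DHX15 groups than in shControl. It lies on chromosome 16 at 68264516 to 68301823 (plus strand) and stood at 145, 144 and 141 CPM in shDHX15_MYC, against 164, 155 and 156 CPM in shDHX15 and 194, 188 and 192 CPM in shControl. The groups did not overlap, with shControl the highest. SLC7A6 fell by 0.27 on the log2 scale in shDHX15 against shControl (SE 0.0323, adjusted p = 3.48e-06) and by 0.14 in shDHX15_MYC against shDHX15 (SE 0.0325, adjusted p = 6.34e-04), the second of which became 0.06 and not called under total-count scaling. This gene is uncertain, since 3371 of its 7588 exon bases are also exon of SLC7A6OS on the opposite strand. SLC7A6OS had log2 fold changes of -0.14 in shDHX15_MYC against shDHX15 and -0.23 in shDHX15 against shControl.

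The balance between the heavy chain and its light chains was compared as the log2 ratio of CPM per kilobase of exon, light chain over SLC3A2. For SLC7A5 this ratio was 0.44, 0.44 and 0.37 in shDHX15_MYC, 0.52, 0.60 and 0.71 in shDHX15 and 0.50, 0.49 and 0.54 in shControl. The shDHX15_MYC libraries were the lowest, and the difference from shDHX15 was -0.20 on the log2 scale, small beside the rise of both messages. The SLC7A6 ratio was -2.80, -2.81 and -2.87 in shDHX15_MYC, -0.35, -0.47 and -0.40 in shDHX15 and -0.06, -0.12 and -0.03 in shControl. SLC7A6 was thus near SLC3A2 in shControl and far below it in shDHX15_MYC, by a further 2.42 on the log2 scale than in shDHX15. The SLC7A11 ratio was -5.56, -5.73 and -5.78 in shDHX15_MYC, -5.99, -5.99 and -5.80 in shDHX15 and -5.92, -6.13 and -6.05 in shControl. In an exact permutation test, 2-sided, 3 libraries against 3 cannot go below p = 0.1. By this exact test all 9 comparisons of the 3 ratios gave that value, or 0.129 after adjustment over the 9, except SLC7A5 (p = 0.2) and SLC7A11 (p = 0.4) in shDHX15 against shControl, so none passes 0.05 in this design. The ratio of messages does not give the ratio of proteins.

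**Figure D2:**
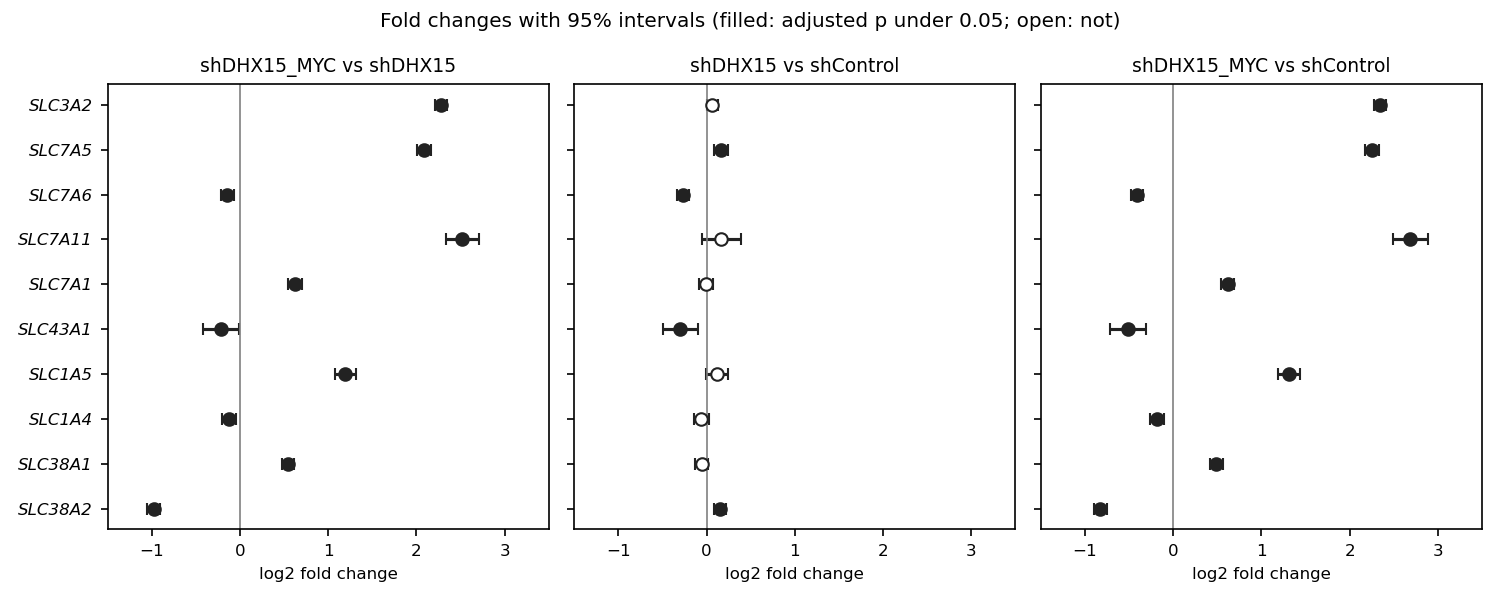
Log2 fold change of each transporter with its 95% interval in the 3 comparisons, filled where the adjusted p is under 0.05. SLC7A11, SLC3A2, SLC7A5 and SLC1A5 lie beyond 1 in both comparisons of shDHX15_MYC, while all 10 lie between -0.30 and 0.17 in shDHX15 against shControl; under total-count scaling SLC7A6 and SLC1A4 turn positive in shDHX15_MYC against shDHX15, SLC1A4 in shDHX15_MYC against shControl, and SLC7A1, SLC1A4 and SLC38A1 in shDHX15 against shControl.

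SLC7A1 and SLC43A1 carry cationic and large neutral amino acids without the heavy chain. SLC7A1 (CAT-1, chromosome 13 at 29509410 to 29595688, minus strand) imports arginine and lysine. It stood at 240.4, 244 and 242 CPM in shDHX15_MYC, 149, 163 and 159.8 CPM in shDHX15 and 163, 152 and 159 CPM in shControl. The shDHX15_MYC libraries stood apart and the other groups overlapped. SLC7A1 rose 1.54-fold in shDHX15_MYC over shDHX15 (0.62, SE 0.0361, adjusted p = 2.41e-11). Between shDHX15 and shControl its log2 fold change was -0.00425, with a 95% interval of -0.08 to 0.07, and it turned to 0.0621 under total-count scaling and to 0.0316 without shDHX15 replicate 1.

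SLC43A1 (LAT3, chromosome 11 at 57484534 to 57515786, minus strand) lets large neutral amino acids through without exchange. Its level was 11.1, 12.2 and 11.5 CPM in shDHX15_MYC, 11.6, 14.8 and 14.0 CPM in shDHX15 and 16.9, 18.1 and 14.8 CPM in shControl. The shControl libraries are at the high end, shDHX15_MYC lies below shControl without overlap, and shDHX15 overlaps both. SLC43A1 fell by 0.51 on the log2 scale in shDHX15_MYC against shControl (SE 0.0965, adjusted p = 1.04e-04). It was called lower in shDHX15 than in shControl (-0.30, SE 0.0950, adjusted p = 0.0171) and in shDHX15_MYC than in shDHX15 (-0.21, SE 0.0969, adjusted p = 0.0495). Neither of those calls is firm: the first was lost without shControl replicate 1 or 2 (adjusted p = 0.0558 and 0.0967) and under total-count scaling (0.0565) and the second in 10 of 17 alternatives, with adjusted p from 9.31e-04 to 0.889. Its promoter stretch carries an E-box, as do that of SLC7A5 and a window of SLC1A5. Whether an E-box bears on the fold changes of these genes was not tested.

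Of the exchangers of the SLC1 family, SLC1A5 was more than 2-fold higher with added MYC and SLC1A4 was not. SLC1A5 (ASCT2, chromosome 19 at 46774883 to 46788594, minus strand) takes up glutamine in exchange for other small neutral amino acids. It stood at 374, 375 and 372 CPM in shDHX15_MYC, 142, 172 and 176 CPM in shDHX15 and 151, 155 and 145 CPM in shControl. The shDHX15_MYC libraries were more than 2-fold above all others, and shDHX15 replicate 1 was below all shControl libraries while replicates 2 and 3 were above them. SLC1A5 rose 2.29-fold in shDHX15_MYC over shDHX15 (1.19, SE 0.0574, adjusted p = 1.78e-12). For shDHX15 against shControl the log2 fold change was 0.12 (95% interval -0.0035 to 0.24, adjusted p = 0.108), and without shDHX15 replicate 1 it was 0.21 (adjusted p = 3.44e-08). Under total-count scaling, with all libraries kept, it was 0.18 and also passed (adjusted p = 0.0142), so that call turns on 1 library and on the scaling. Antisense AC008622.2 covers 780 of the 3332 exon bases of SLC1A5.

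SLC1A4 (ASCT1, chromosome 2 at 64988477 to 65023865, plus strand) carries alanine, serine, cysteine and threonine. Its level was 122, 127 and 127 CPM in shDHX15_MYC, 130.1, 138 and 141 CPM in shDHX15 and 145, 137 and 145 CPM in shControl. The shDHX15_MYC libraries were the lowest by a narrow margin, and shDHX15 and shControl overlapped. It was called lower in shDHX15_MYC than in shDHX15 (-0.12, SE 0.0382, adjusted p = 0.00649) and than in shControl (-0.18, SE 0.0383, adjusted p = 3.11e-04), but under total-count scaling these changes were 0.08 (not called) and 0.08 (called higher, adjusted p = 0.0462). The direction of SLC1A4 therefore depends on the scaling. The 95% interval for shDHX15 against shControl was -0.14 to 0.02 for SLC1A4 on the log2 scale (adjusted p = 0.237).

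The sodium-coupled carriers of the SLC38 family moved in opposite directions with added MYC. SLC38A1 (SNAT1) and SLC38A2 (SNAT2) both import glutamine, alanine and serine and lie near each other on chromosome 12, at 46183063 to 46270017 and 46358189 to 46372867 on the minus strand. SLC38A1 stood at 347, 345 and 335 CPM in shDHX15_MYC, 247, 227 and 230.5 CPM in shDHX15 and 248, 245 and 238 CPM in shControl. The shDHX15_MYC libraries were above the other 6, which overlapped between groups. SLC38A1 rose 1.46-fold in shDHX15_MYC over shDHX15 (0.54, SE 0.0342, adjusted p = 7.90e-11), with a 95% interval of -0.13 to 0.02 in shDHX15 against shControl (adjusted p = 0.204). Without shDHX15 replicate 1, it was called lower in shDHX15 than in shControl, at -0.09 (adjusted p = 0.00300).

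SLC38A2 stood at 278, 276 and 265 CPM in shDHX15_MYC, 567, 523 and 523 CPM in shDHX15 and 476, 493 and 483 CPM in shControl. No groups overlapped: the shDHX15_MYC libraries were the lowest and the shDHX15 libraries the highest. SLC38A2 fell by 0.98 on the log2 scale in shDHX15_MYC against shDHX15 (SE 0.0348, adjusted p = 2.82e-14), to 0.508 times the level. Against shControl it fell by 0.83 (SE 0.0348, adjusted p = 2.96e-13). It was called higher in shDHX15 than in shControl by 1.11-fold (0.15, SE 0.0343, adjusted p = 0.00165). SLC38A2 kept its direction and its call in all 3 comparisons under each of the 17 alternatives.

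Counted together, 6 of the 10 transporters were called higher and 4 lower in shDHX15_MYC against shDHX15, where 42.1% of all tested genes were called higher and 42.6% lower. With 84.7% of all genes called in one direction or the other, the count of called transporters is near the background. The size of the change is described by its median, 0.58 on the log2 scale over the 10 and 0.01 over all genes, while the median size without sign was 0.80 over the 10 and 0.71 over all genes. At least 2-fold higher were 4 of the 10 (SLC7A11, SLC3A2, SLC7A5 and SLC1A5), against 21.7% of all genes, and 0 were at least 2-fold lower, against 14.7%. Libraries did not overlap for 9 of the 10, all but SLC43A1, and for 85.0% of all genes.

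Ranked by log2 fold change in that comparison among the 15309 genes, SLC7A11 was number 1332 from the top, SLC3A2 number 1595, SLC7A5 number 1792 and SLC1A5 number 2979. These 4 therefore lie in the upper part of the distribution but not at its end. SLC38A2 was number 12980, in the lower part.

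For the hairpin alone, in shDHX15 against shControl, 2 of the 10 were called higher (SLC7A5 and SLC38A2), where 22.0% of all genes were, 2 lower (SLC7A6 and SLC43A1), where 23.0% were, and 6 were not called. The total of 4 of 10 stands beside 45.0% of all genes. The median log2 fold change was 0.03 over the 10 and -0.0047 over all genes, and the median size without sign was 0.14 over the 10 and 0.20 over all genes. None of the 10 changed 2-fold, which 0.849% of all genes did upward and 2.16% downward. In shDHX15_MYC against shControl, 6 were called higher, where 42.0% of all genes were, and 4 lower, where 42.5% were. All 10 were thus called, beside 84.5% of all genes, and groups did not overlap for all 10 and for 87.2% of all genes. Both comparisons of shDHX15 use the same shDHX15 libraries and both comparisons with shControl the same shControl libraries, so their values are set side by side and not tested against each other. Scaling bears on the counts of lower genes. Under total-count scaling the median of all genes was 0.20 in shDHX15_MYC against shDHX15. It was 0.06 in shDHX15 against shControl and 0.28 in shDHX15_MYC against shControl. The transporters called lower then numbered 1, 1 and 3 in these comparisons, beside 5348, 2568 and 4893 of all 15309 genes.

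**Figure D3:**
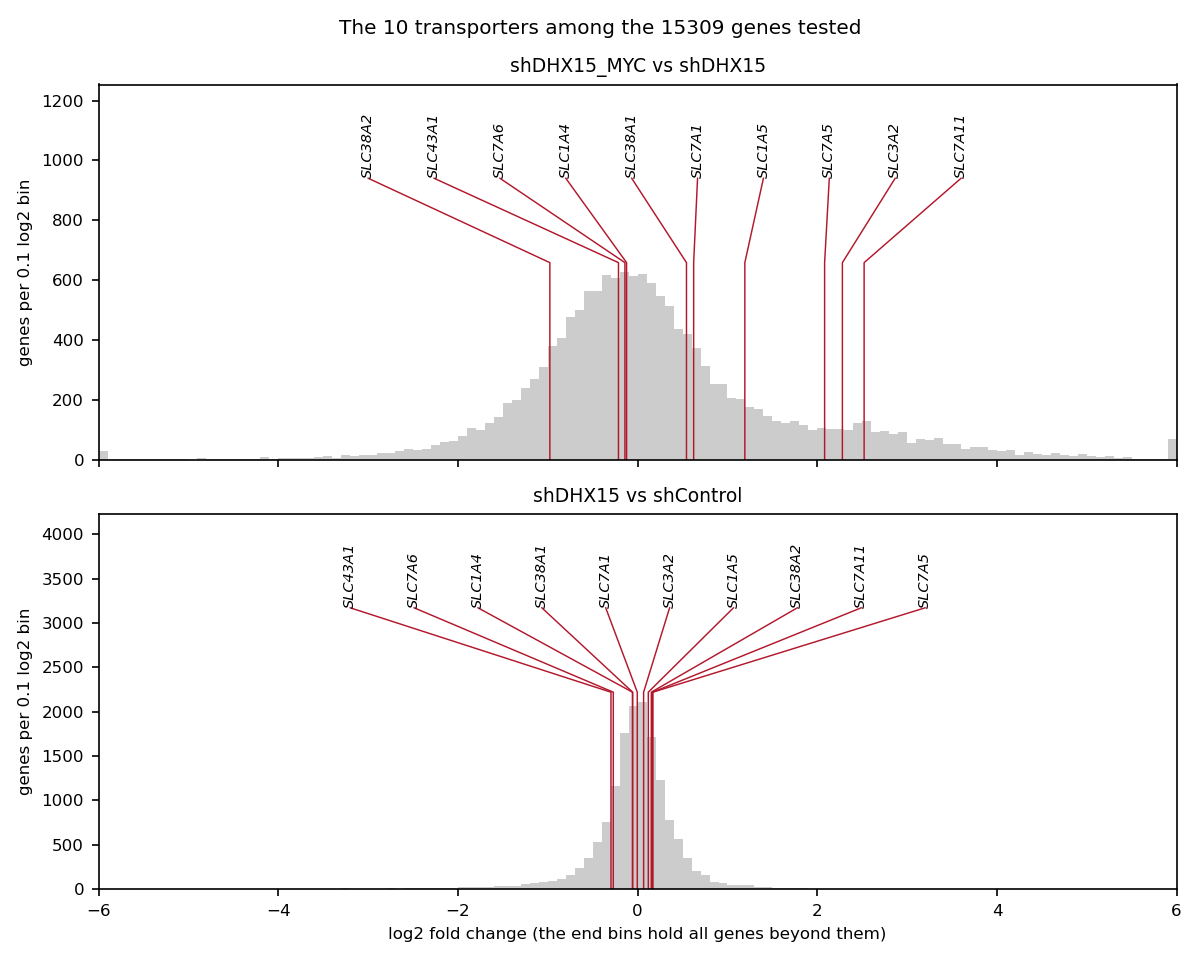
Histograms of log2 fold changes of all tested genes in 2 comparisons, with lines that mark the 10 transporters. In shDHX15_MYC against shDHX15 the transporters spread from -0.98 to 2.52, and in shDHX15 against shControl from -0.30 to 0.17, with the signs of SLC7A6 and SLC1A4 in the first and of SLC7A1, SLC1A4 and SLC38A1 in the second turning under total-count scaling.

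Levels of different genes were compared as CPM per kilobase of annotated exon. In shDHX15_MYC the order ran SLC7A5 (179 ± 2.53 CPM per kilobase, SD, n = 3), SLC3A2 (134 ± 2.07), SLC1A5 (112 ± 0.391), SLC38A2 (41.4 ± 1.03), SLC38A1 (34.2 ± 0.662), SLC7A1 (31.5 ± 0.260), SLC7A6 (18.9 ± 0.243), SLC1A4 (18.1 ± 0.418), SLC43A1 (3.29 ± 0.160) and SLC7A11 (2.61 ± 0.195). No neighbours in this order overlapped. In shDHX15 the order began with SLC38A2 (81.4 ± 3.85), SLC1A5 (49.0 ± 5.67), SLC7A5 (42.3 ± 2.57) and SLC3A2 (27.7 ± 0.664), and SLC1A5 overlapped SLC7A5, as SLC7A6 did SLC7A1 and SLC7A1 did SLC1A4. In shControl it began with SLC38A2 (73.3 ± 1.30), SLC1A5 (45.2 ± 1.57), SLC7A5 (37.6 ± 0.170) and SLC3A2 (26.4 ± 0.560), with overlaps between SLC7A6 and SLC38A1 and between SLC7A1 and SLC1A4. SLC43A1 and SLC7A11 were the last in all groups.

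The leading message of the set thus differed: SLC7A5 in shDHX15_MYC, and SLC38A2 in shDHX15 and shControl. As a share of the summed length-scaled level of the 10, SLC7A5 took 31.1% ± 0.296 in shDHX15_MYC, 14.6% ± 0.644 in shDHX15 and 13.5% ± 0.0817 in shControl (SD, n = 3). SLC3A2 took 23.3% ± 0.466 in shDHX15_MYC, 9.57% ± 0.276 in shDHX15 and 9.50% ± 0.111 in shControl, and SLC38A2 took 7.19% in shDHX15_MYC, 28.2% in shDHX15 and 26.4% in shControl. The sum itself was 575 ± 2.68 CPM per kilobase in shDHX15_MYC, 289 ± 4.96 in shDHX15 and 278 ± 2.66 in shControl. These shares describe messages and not transport capacity.

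**Figure D4:**
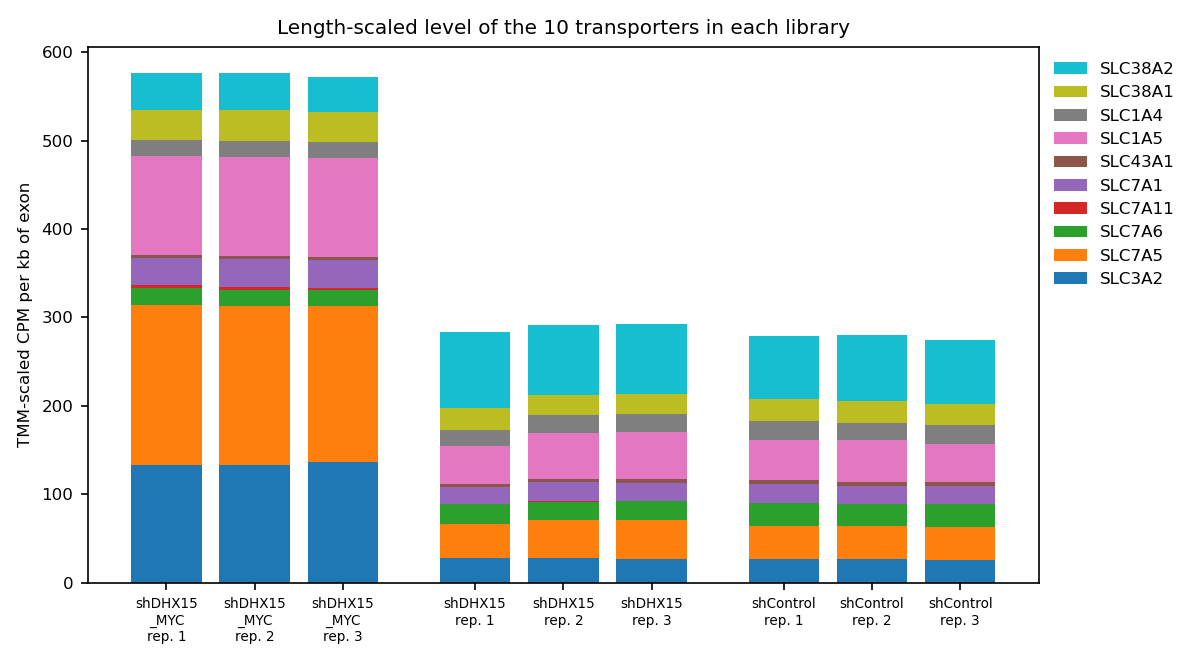
Stacked bars of the level of the 10 transporters in CPM per kilobase of exon in each library, shDHX15_MYC at the left and shControl at the right. The bars sum to 575 in shDHX15_MYC on average, 289 in shDHX15 and 278 in shControl, and SLC7A5 and SLC3A2 take the largest parts in shDHX15_MYC.

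Other amino acid transporters of the plasma membrane were followed as a list of 20 genes, of which 16 were tested. With added MYC, 9 of the 16 were called higher than in shDHX15 and 6 lower, beside the 42.1% and 42.6% of all genes given above, and the median log2 fold change was 1.36. Higher were the neutral amino acid carrier SLC6A15 (48.8 CPM in shDHX15_MYC and 3.40 CPM in shDHX15; 3.85, adjusted p = 6.19e-16), the glutamate carrier SLC1A3 (20.1 CPM in shDHX15_MYC and 1.04 CPM in shDHX15; 4.28, adjusted p = 3.91e-15), the cationic carrier SLC7A2 (3.41, adjusted p = 1.62e-11), the glycine carrier SLC6A9 (2.71, adjusted p = 1.56e-10) and SLC43A2, also called LAT4 (0.95, adjusted p = 1.97e-08). Also higher were SLC7A8, SLC7A9, SLC7A7 and SLC1A1, at 3.44, 3.10, 1.84 and 1.77, and these genes, like SLC7A2, averaged under 1 CPM in shDHX15. Lower were the taurine carrier SLC6A6 (59.5 CPM in shDHX15_MYC and 123 CPM in shDHX15; -1.05, adjusted p = 4.56e-14), the aromatic amino acid carrier SLC16A10 (-0.59, adjusted p = 1.93e-06), SLC38A3 (-1.35, adjusted p = 4.12e-06), SLC7A3 (-1.45, adjusted p = 3.20e-05), SLC36A4 (-0.37, adjusted p = 1.85e-04) and the glutamine carrier SLC38A5 (-0.24, adjusted p = 9.29e-04). Of the same 16, beside the 22.0% and 23.0% of all genes, shDHX15 against shControl had 3 called higher (SLC3A1 at 0.47, SLC38A3 at 0.51 and SLC36A4 at 0.28) and 5 lower (SLC7A8 at -1.52, SLC7A2 at -0.89, SLC1A3 at -0.53, SLC38A5 at -0.34 and SLC6A6 at -0.13). Genes at low levels passed the count filter partly or wholly through the group in which they are high. SLC1A1 averaged 0.450 CPM in shDHX15_MYC, 0.128 in shDHX15 and 0.106 in shControl, and SLC7A9 1.19, 0.134 and 0.236. A gene that passed only through shDHX15_MYC could be called higher there but hardly lower. The 9 called higher and the median of 1.36 may therefore lean upward.

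Transporters of the lysosome membrane move amino acids between the lysosome and the cytosol. Of 7 tested, 2 were called higher and 4 lower in shDHX15_MYC against shDHX15, where 42.1% and 42.6% of all genes were, but under total-count scaling 3 were higher and 0 lower, beside 7679 and 5348 of all 15309 genes. SLC36A1, a proton-coupled carrier, was higher (1.73, adjusted p = 1.25e-12), as was the glutamine carrier SLC38A7 (1.33, adjusted p = 8.22e-12). SLC38A9, an arginine sensor of the lysosome, had -0.20, adjusted p = 0.00367, and the cysteine importer MFSD12 -0.29, adjusted p = 0.00409. Without added MYC, 2 were called higher and 0 lower in shDHX15 against shControl, beside 22.0% and 23.0% of all genes: SLC66A1 at 0.40, adjusted p = 0.00150 and MFSD12 at 0.29, adjusted p = 0.0105.

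The list for amino acid sensing upstream of mTORC1 holds 32 genes, and it includes RHEB and MTOR and RPTOR of the complex itself. Of these 32, 7 were called higher and 21 lower in shDHX15_MYC against shDHX15. Of all genes, 42.1% and 42.6% were, and the median of the 32 was -0.30. Under total-count scaling 11 were higher and 15 lower, beside 7679 and 5348 of all 15309 genes. SESN2, a leucine sensor, rose (80.0 CPM in shDHX15_MYC and 28.4 CPM in shDHX15; 1.49, adjusted p = 1.12e-14). The arginine sensor CASTOR1 fell (10.5 CPM in shDHX15_MYC and 37.3 CPM in shDHX15; -1.82, adjusted p = 5.45e-14), as did LAMTOR4 of the Ragulator scaffold (-1.40, adjusted p = 7.10e-14) and WDR59 of the GATOR2 complex (-0.80, adjusted p = 4.23e-13). The counts for shDHX15 against shControl were 4 higher and 7 lower of 32, where 22.0% and 23.0% of all genes were called, and under total-count scaling 11 and 5, beside 4576 and 2568 of all 15309 genes. The smallest adjusted p-values were those of LAMTOR1 (-0.36, adjusted p = 1.31e-05) and NPRL3 (-0.28, adjusted p = 1.16e-04).

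The amino acid starvation response is the pathway of the kinase EIF2AK4 and of ATF4. Of 15 genes listed for it, 13 were called higher and 2 lower in shDHX15_MYC against shDHX15, with a median of 1.28. Of all genes, 42.1% and 42.6% were. The 2 lower were EIF2AK4 itself (-0.22, adjusted p = 2.61e-04) and VLDLR (-1.80, adjusted p = 7.43e-14). The activity of the kinase was not tested. The phosphatase subunit PPP1R15A stood at 279.8 CPM in shDHX15_MYC and 58.9 CPM in shDHX15 (2.25, adjusted p = 1.07e-18) and ATF4 itself at 852 CPM in shDHX15_MYC and 438 CPM in shDHX15 (0.96, adjusted p = 1.42e-15). ATF5 (2.11, adjusted p = 1.31e-16) and ATF3 (1.37, adjusted p = 1.63e-15) were higher too. Against shControl, shDHX15 had 4 of the 15 higher and 6 lower, beside 22.0% and 23.0% of all genes. Among the lower were ATF4 (-0.19, adjusted p = 2.75e-05) and the EIF2AK4 activator GCN1 (-0.19, adjusted p = 4.76e-05). Under total-count scaling 5 were higher and 3 lower, beside 4576 and 2568 of all 15309 genes. SLC38A2 fell with added MYC while 13 of the 15 messages of this response were higher.

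Enzymes that use the imported amino acids were followed in 3 lists. For glutamine and aspartate, 9 of 12 were called higher and 3 lower in shDHX15_MYC against shDHX15, beside 42.1% and 42.6% of all genes: glutamine synthetase GLUL fell (469.8 CPM in shDHX15_MYC and 1169 CPM in shDHX15; -1.31, adjusted p = 1.11e-17), glutamate dehydrogenase GLUD1 fell (-0.56, adjusted p = 1.78e-11), and asparagine synthetase ASNS (1.02, adjusted p = 4.80e-12) and the transaminase GOT1 (0.96, adjusted p = 7.00e-12) rose. In shDHX15, 4 were higher than in shControl and 4 lower (22.0% and 23.0% of all genes), with GLUL (0.24, adjusted p = 7.61e-07) and GPT2 (0.39, adjusted p = 1.71e-04) among the higher ones. For cystine use and glutathione synthesis, 9 of 16 were called higher and 5 lower with added MYC, again beside 42.1% and 42.6% of all genes. Haem oxygenase HMOX1 rose (31.8 CPM in shDHX15_MYC and 0.997 CPM in shDHX15; 4.98, adjusted p = 2.05e-16) and the glutathione-degrading CHAC1 rose (2.29, adjusted p = 9.04e-13), while the peroxidase GPX4 fell (-0.99, adjusted p = 5.96e-15). CBS, which has a near-identical copy and is uncertain, had -2.19, adjusted p = 4.04e-13. In shDHX15 against shControl 4 were higher and 7 lower in this list, beside 22.0% and 23.0% of all genes. Among the lower were thioredoxin TXN (-0.48, adjusted p = 9.60e-06) and HMOX1 (-1.01, adjusted p = 8.19e-05). Under total-count scaling 4 were higher and 4 lower in this list, beside 4576 and 2568 of all 15309 genes. For branched-chain amino acids and arginine, 7 of 12 were called higher and 3 lower with added MYC, where 42.1% and 42.6% of all genes were. The cytosolic transaminase BCAT1 (53.7 CPM in shDHX15_MYC and 15.6 CPM in shDHX15; 1.78, adjusted p = 3.03e-15) and ornithine decarboxylase ODC1 (0.69, adjusted p = 1.03e-12) rose, and BCKDHB (-1.69, adjusted p = 2.27e-13) and BCKDK (-1.39, adjusted p = 1.22e-12), a subunit and the kinase of the branched-chain ketoacid dehydrogenase, fell. In shDHX15 against shControl 1 was higher and 4 lower, beside 22.0% and 23.0% of all genes, with the smallest adjusted p-values for BCAT1 (-0.62, adjusted p = 1.44e-07) and DBT (0.41, adjusted p = 8.50e-05).

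**Figure D5:**
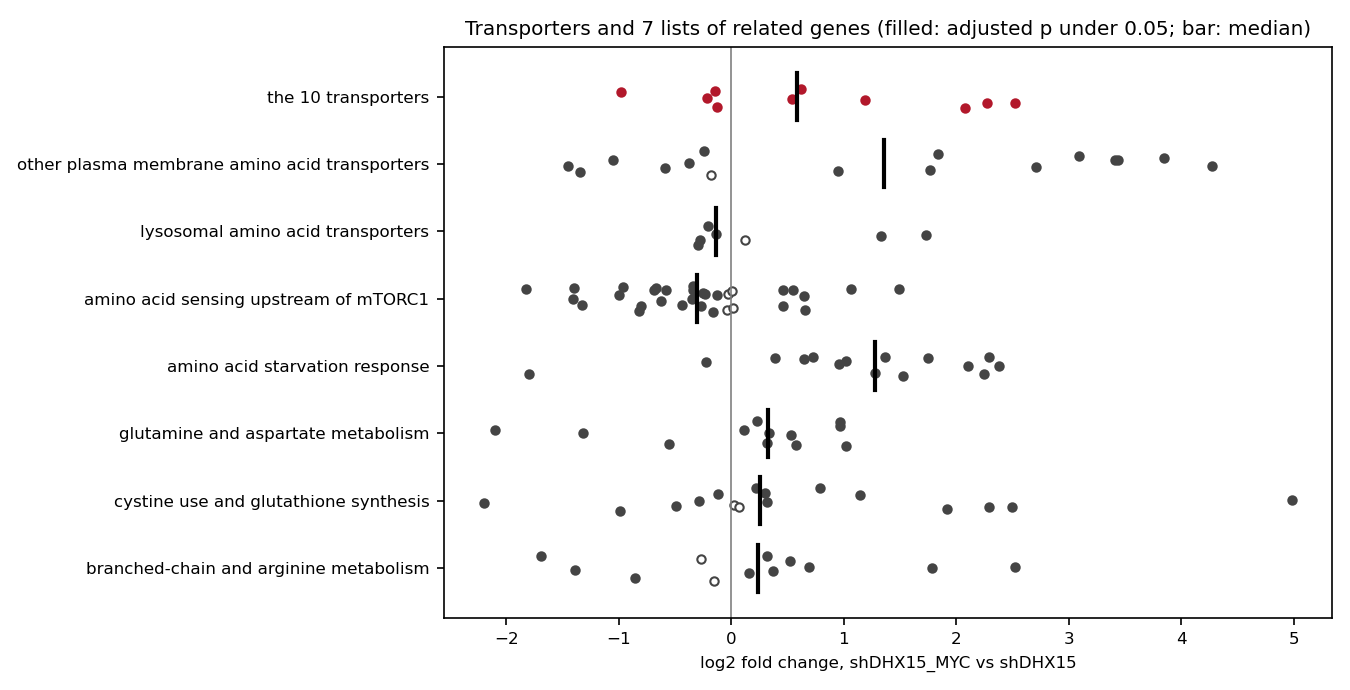
Log2 fold change in shDHX15_MYC against shDHX15 of the 10 transporters and of 7 lists of related genes; each point is a gene, filled where the adjusted p is under 0.05, and the bar is the list's median. The medians are 0.58 for the 10 transporters, 1.36 for other transporters of the plasma membrane, 1.28 for the starvation response and -0.30 for amino acid sensing upstream of mTORC1, and that of lysosomal transporters, -0.14, turns to 0.06 under total-count scaling. The median of 1.36 may lean upward, since some low genes passed the count filter through shDHX15_MYC.

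Likeness of pattern was measured for the 3 transporters with the highest fold changes, as the distance over the log2 fold changes of shDHX15 against shControl and of shDHX15_MYC against shDHX15, over genes whose log2 CPM averaged 3 or more. These values share the shDHX15 libraries and rest on 3 groups. Nearest to SLC3A2 of 9445 genes were DNTTIP2 (distance 0.0198), OVGP1 (0.0331), YRDC (0.0784) and PPP1R15A (0.104). Nearest to SLC7A5 of 9445 were ISG20 (0.0635), SLC6A8 (0.0710), ATP6V0A1 (0.0977) and TAF13 (0.117). Nearest to SLC7A11 of 9446 were KBTBD8 (0.0348), LSR (0.0806), CDKN1A (0.112) and AKAP12 (0.150).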

How the data were processed

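Poly(A)-selected RNA of 9 KOPTK1 libraries was read as 150 bp pairs, per the labels' protocols. The authors deposited 1 table of unscaled, whole-number read counts. Build hg38, HISAT2 2.2.1, FastQC 0.11.9 and DESeq2 1.32.0 appear in the submitters' processing notes. How reads were counted, with which annotation and strand setting, is not given in the sources used here. Columns were joined to samples through the hairpin in their names: GFP was taken as shControl, and a numbered hairpin, with or without MYC, as shDHX15_MYC and shDHX15, because the labels name no other target.

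Genes passed filterByExpr of edgeR 4.0.16 (15309 of 17637) in R 4.3.3, were scaled by TMM and entered a quasi-likelihood fit of the 9 libraries with a mean for each group. Tests were 2-sided, the Benjamini-Hochberg adjustment ran over all 15309 genes, and a gene is called at an adjusted p under 0.05. The standard error (SE) is the size of the log2 fold change divided by the square root of its F statistic, and 95% intervals use the t distribution with the model's degrees of freedom. Such intervals cover the spread between these libraries. Exon lengths, positions and overlaps are from GENCODE v29 (GRCh38), where 95.1% of symbols matched; shared sequence was sought in 100-base windows every 50 bases. The steps were tested on simulated data.

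The 10 genes and the lists of related genes were chosen with earlier results of these data known. All 10 are named, and DHX15 and MYC as a check of the labels. Of each list, up to 4 genes with the smallest adjusted p in shDHX15_MYC against shDHX15 and up to 2 in shDHX15 against shControl are named, and every called gene of the other plasma membrane transporters. The 2 genes of the starvation response that were lower in shDHX15_MYC against shDHX15 are named too. Of 164 list symbols, 153 matched directly and 3 by an older symbol. Libraries of the same number did not deviate together (r from -0.0239 to 0.0412 across genes), so the model does not pair them.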

Additional observations from a re-analysis of the deposited data

How the results depend on the processing

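Of 510 values of single transporters under 17 alternatives for the fold changes, 480 kept their direction and their side of the threshold, 6 gained and 14 lost a call and 10 changed sign. The rises of SLC7A11, SLC3A2, SLC7A5, SLC1A5, SLC7A1 and SLC38A1 in shDHX15_MYC against shDHX15, and the fall of SLC38A2, held under all 17. Total-count scaling, which leaves out the TMM factors, gave 1 transporter called lower in shDHX15_MYC against shDHX15 (main model 4). In shDHX15 against shControl it gave 4 higher and 1 lower (main model 2 and 2). It changed the sign of SLC7A6 (0.0569) and SLC1A4 (0.0754) in shDHX15_MYC against shDHX15, of SLC1A4 (0.0840) in shDHX15_MYC against shControl, and of SLC7A1 (0.0621), SLC1A4 (0.00868) and SLC38A1 (0.0107) in shDHX15 against shControl. Over all genes it moved the calls in shDHX15_MYC against shDHX15 to 7679 higher and 5348 lower (main model 6438 and 6528), in shDHX15_MYC against shControl to 8128 and 4893 (6437 and 6502), and in shDHX15 against shControl to 4576 and 2568 (3362 and 3524). The sign of SLC7A1 in shDHX15 against shControl also changed with only the 6 libraries compared (0.0147), without mitochondrially encoded genes and MYC (0.0163), and when 1 library was left out, where it ran from -0.0328 to 0.0316, with 0.0180 without shControl replicate 1. DESeq2's Wald test called 2 transporters lower in shDHX15_MYC against shDHX15. Leaving out 1 library at a time gave 3 to 4 lower in that comparison, and 2 to 4 higher and 1 to 3 lower in shDHX15 against shControl: without shDHX15 replicate 1, 4 were higher and 3 lower. Beyond the scaling itself and the left-out libraries, the cause was not tested. With a replicate block, 6 transporters were called higher and 4 lower in shDHX15_MYC against shDHX15 and against shControl, and 2 and 2 in shDHX15 against shControl, as without it, and it changed no single call. The light chain ratios kept their direction when any 1 library of the groups compared was left out. The others of the 10 alternatives could not change these differences. The length of the exons cancels between groups, and libraries of the group not compared do not enter. SLC43A1 and SLC7A11 had the smallest counts of the 10, down to 527 and 156 in a library.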
